A study of Mus musculus with 6 samples.

Results

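Acetylated histone H3 (H3ac) was compared between untreated mesenchymal stem cells (MSCs) of old and of young mice, region by region across the genome. The libraries were chosen by their labels as Old replicates 1 and 2 and Young replicates 1 and 2, which are 4 of the 6 H3ac libraries of the series, and all 24431 regions of the deposited table were used. Young MSCs came from mice aged 3 to 5 months and Old MSCs from mice aged 18 to 22 months. The other 2 libraries, OldAcetate, came from mice of 18 to 22 months whose MSCs received 5 mM sodium acetate for 3 days. They are in neither compared group. They entered the estimate of the spread between libraries, the scaling and the mean levels used to rank or filter regions. All 3 groups were cultured at 2% O2 in αMEM with 10% FBS and 1% penicillin/streptomycin. The labels name neither the strain nor the sex of the mice and do not say whether replicates came from separate animals or cultures, so p-values measure the spread between these libraries, which may be technical.

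MSCs are stromal progenitors that can form bone, fat and cartilage cells. Acetyl groups on the tails of histone H3 are placed by acetyltransferases, which use acetyl-CoA as donor, and are removed by deacetylases and sirtuins. The mark is typically found at active promoters and enhancers, where it makes chromatin more accessible and is bound by bromodomain proteins. It was mapped by CUT&RUN, in which an antibody (here H3AC) tethers a nuclease to the marked chromatin and the released fragments are sequenced. The comparison asks whether the distribution of H3ac differs with age.

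Values were given in RPM, the reads of a region scaled to the total of the library. RPM is a share of a library, so less H3ac per cell and more reads outside the regions cannot be told apart. Totals were 3039481 and 2448203.5 reads in Young and 2163351 and 2514391 in Old, and the median region held 56 and 40 reads in Young against 31 and 33 in Old, so both Old libraries were shallower in the regions. The regions covered 201 Mb on 20 chromosomes, were 500 to 162500 bp long with a median of 5500 bp, and began and ended on steps of 500 bp. The name of each region includes a code of the letters Y, O and AC. These were taken to stand for detection in Young, Old and OldAcetate, although no label explains them. Of the regions, 24423 carry Y and 20325 carry O, so the set holds more regions detected in Young than in Old. The identity of the cells was checked by which marker genes had a region within 1 kb of a start site. All 18 of 18 MSC surface and niche markers did, among them Pdgfra, Pdgfrb, Thy1, Nt5e, Eng, Cd44, Itgb1, Ly6a and Prrx1. Only 3 of 16 hematopoietic markers did (Csf1r and Cd68 among them), and Ptprc and Spi1, which define that lineage, had none. For endothelial markers the count was 2 of 10 (Esam and Erg, without Pecam1 or Cdh5), and for neural markers 1 of 10 (Neurog2).

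Sequences of the regions on which the results turn are shown first. The following 4 promoters, 250 bases before to 50 bases after a start site, are those of RefSeq (GRCm38.p6), with each CG in capitals. Cyb561a3 and Garnl3 had the most negative changes among well covered promoters, Pdgfra encodes a surface receptor that marks MSCs, and Nfix lies in one of the regions that lost most RPM. Where a gene has several starts inside a region, the start nearest the region centre is shown, which need not be its main promoter.
Cyb561a3, chr19:10577198-10577497, plus strand: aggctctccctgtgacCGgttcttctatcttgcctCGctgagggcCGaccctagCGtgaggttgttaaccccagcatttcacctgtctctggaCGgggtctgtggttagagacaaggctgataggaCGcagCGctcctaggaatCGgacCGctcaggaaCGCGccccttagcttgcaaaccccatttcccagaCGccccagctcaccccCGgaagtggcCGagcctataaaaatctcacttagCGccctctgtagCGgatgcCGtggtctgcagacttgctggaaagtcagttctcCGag
Garnl3, chr2:33130570-33130869, minus strand: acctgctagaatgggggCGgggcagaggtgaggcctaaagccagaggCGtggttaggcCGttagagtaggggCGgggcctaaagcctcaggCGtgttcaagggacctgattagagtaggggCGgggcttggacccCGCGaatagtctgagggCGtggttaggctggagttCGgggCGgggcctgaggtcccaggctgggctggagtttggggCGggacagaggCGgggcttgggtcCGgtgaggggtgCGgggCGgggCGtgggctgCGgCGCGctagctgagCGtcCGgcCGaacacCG
Pdgfra, chr5:75152001-75152300, plus strand: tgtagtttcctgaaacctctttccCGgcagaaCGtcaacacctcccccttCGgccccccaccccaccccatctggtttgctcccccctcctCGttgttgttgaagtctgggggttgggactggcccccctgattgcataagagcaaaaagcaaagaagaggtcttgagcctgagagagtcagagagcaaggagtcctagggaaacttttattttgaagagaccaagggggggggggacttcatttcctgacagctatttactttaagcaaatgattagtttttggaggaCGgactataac
Nfix, chr8:84772826-84773125, minus strand: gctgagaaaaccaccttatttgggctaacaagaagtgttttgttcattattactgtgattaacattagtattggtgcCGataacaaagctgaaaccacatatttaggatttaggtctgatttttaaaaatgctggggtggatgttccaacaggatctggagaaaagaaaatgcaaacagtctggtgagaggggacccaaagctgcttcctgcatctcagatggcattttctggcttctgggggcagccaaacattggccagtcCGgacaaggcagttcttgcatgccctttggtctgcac
These promoters hold 18, 24, 5 and 2 CG. The GC box GGGCGG, searched on both strands, occurred 6 times in the Garnl3 promoter. Over 32585 RefSeq promoters, 14812 lay inside a region. The median count of CG was 18 in the 1982 promoters inside regions that were lower in Old, 20 in the 12830 promoters of the other regions and 3 in the 17773 promoters outside any region. The GC box was present in 57.1%, 60.7% and 15.6% of these groups and in 35.9% of all promoters. CCAAT was present in 32.7%, 37.1% and 38.4% (37.6% of all), TATAAA in 7.32%, 7.16% and 19.1% (13.7% of all), the AP-1 motif TGACTCA or TGAGTCA in 4.74%, 4.02% and 6.15% (5.23% of all), and the CRE motif TGACGTCA in 2.72%, 2.96% and 0.866% (1.805% of all), each on both strands and with overlaps between motifs allowed. Promoters inside regions held more CG and GC boxes and fewer TATAAA than those outside, while promoters lower in Old and those of the other regions differed by less than 5 percentage points for each motif.

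The following window of 300 bases, read from the plus strand of GRCm38.p6, is the centre of a region that was higher in Old, also after scaling, and is named by the nearest start site. Capitals mark soft-masked repeat bases.
Gvin1, chr7:106240100-106240399: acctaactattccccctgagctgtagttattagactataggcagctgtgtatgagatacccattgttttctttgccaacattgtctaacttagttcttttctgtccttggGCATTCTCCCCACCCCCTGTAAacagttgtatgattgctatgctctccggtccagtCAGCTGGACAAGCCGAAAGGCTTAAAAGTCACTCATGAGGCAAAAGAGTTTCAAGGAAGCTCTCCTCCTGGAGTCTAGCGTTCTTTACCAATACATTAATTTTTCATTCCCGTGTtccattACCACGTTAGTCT
Repeat bases made up 150 of the 300 bases.

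In Old MSCs a smaller share of the reads lay in H3ac regions, and every class of position contributed. Regions within 1 kb of a protein-coding start site (promoter, n = 10830) held 33.8% and 30.6% of the Young libraries and 25.7% and 24.5% of the Old libraries. Regions that overlapped a protein-coding gene away from its start (gene body, n = 6997) held 17.2% and 14.97% in Young and 13.2% and 11.9% in Old. Intergenic regions within 50 kb of a start site (intergenic near, n = 2822) held 5.91% and 5.15% in Young and 4.62% and 4.03% in Old. Intergenic regions farther away (intergenic far, n = 3782) held 7.97% and 7.08% in Young and 6.40% and 5.55% in Old. In all 4 classes both Old libraries lay below both Young libraries.

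Promoter regions carried 53.1% of the difference between the groups, gene bodies 26.3%, near intergenic regions 8.98% and far intergenic regions 11.6%. In percentage points of a library the differences were -7.12 for promoters (pooled replicate SD 1.70), -3.53 for gene bodies (SD 1.30), -1.20 for near intergenic regions (SD 0.479) and -1.55 for far intergenic regions (SD 0.613), each larger than its SD. The classes differed little in the size of the change for their level. The Old mean was 77.9% of the Young mean in promoters, 78.03% in gene bodies, 78.2% in near and 79.3% in far intergenic regions. When the median of each class was taken relative to the median of all regions in the same library, the Old minus Young difference was -0.02, -0.01, 0.01 and 0.03 on the log2 scale, against pooled SDs of 0.05, 0.02, 0.02 and 0.07. In exact permutation tests (two-sided) p was 0.667 for promoters and 1 for the other 3 classes, where 2 libraries against 2 allow no p below 0.333. No class of position therefore departed from the common shift by more than the spread between libraries.

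**Figure D1:**
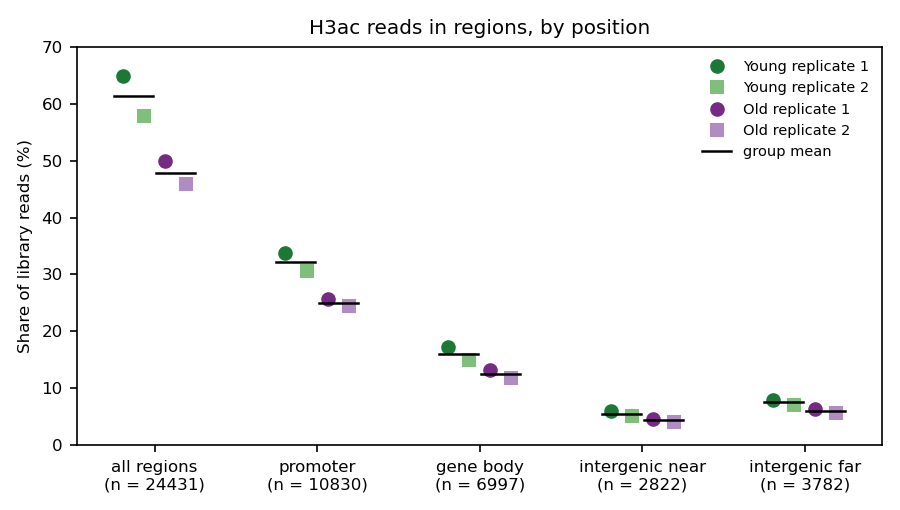
Share of each library's reads (%) that fell in all regions and in the 4 classes of position, with 1 point per library and a line at each group mean (n = 2). Both Old libraries lie below both Young libraries in every class, and promoters show the largest difference, -7.12 percentage points.

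Region by region, H3ac was lower in Old at 2320 regions and higher at 7 (limma on log2(RPM + 0.5), Benjamini-Hochberg adjusted p under 0.05). These are 9.5% and 0.0287% of the 24431 regions tested. Of these regions 24423 carry Y and 20325 carry O, so the set was not neutral between the groups. When the 19702 regions coded AC+O+Y were fitted by themselves, 1906 were called lower and 6 higher. The part of the region set in the counts was not tested. The last region called had an adjusted p of 0.04999 and the first not called 0.05005. The median log2 fold change of all regions was -0.35 and 92.1% of regions had a value below 0, with the 5th and 95th percentiles at -0.79 and 0.07. Both Old libraries lay below both Young libraries in 14707 regions (60.2%) and above them in 316 (1.29%). After median-of-ratios scaling, which sets the median change between libraries to about 0, 2 regions were called (0.00819%), both higher in Old, and the 5th and 95th percentiles were -0.44 and 0.42. At an unadjusted p under 0.05 the scaled values gave 651 lower (2.66%) and 703 higher (2.88%) regions. Of the 2320 regions lower in Old, 2307 stayed below 0 after scaling, with a median of -0.29, and 624 had an unadjusted p under 0.05. Scaling therefore removed the calls but not the sign of the regions that had been called, which had been selected for the same values.

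The calls rested on 1 library more than on the others. Without Young replicate 1, the deepest library, with the largest share of its reads in regions (64.8%), 9 of the 2320 regions were still called lower. This number was 1388 without Young replicate 2, 1572 without Old replicate 1 and 381 without Old replicate 2. In each of these fits at least 2319 of the 2320 kept a negative log2 fold change. Removing 1 of the OldAcetate libraries, which are in neither group but share the estimate of the spread, left 644 or 724 called regions in all.

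**Figure D2:**
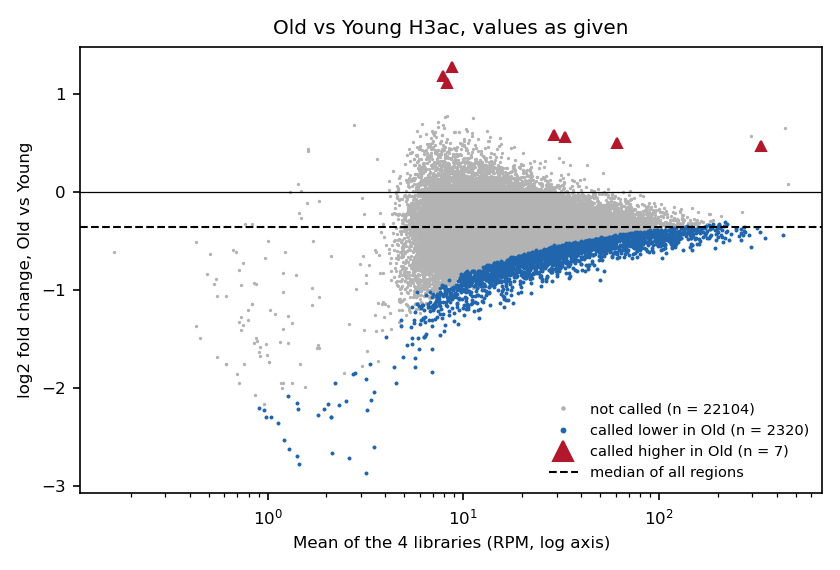
Log2 fold change of Old vs Young (values as given) against the mean RPM of the 4 libraries on a log axis, with 1 point per region. Most regions lie below 0 around the median of -0.35, the 2320 regions called lower reach smaller changes as the RPM rises, and 7 called regions lie above 0.

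The share of regions called lower was larger where regions held more reads, whereas the median change varied little above 2 kb. What part read number or length had in the calls was not tested. Ranked by mean RPM over all 6 libraries, the share called lower rose over 5 equal groups of regions from 3.34% to 4.38%, 5.89%, 10.0% and 23.8%, while the median log2 fold changes were -0.39, -0.35, -0.34, -0.34 and -0.36. Called regions were longer, with a median of 10500 bp against 5500 bp for the others, and held a median of 77 against 38 reads per library. The same was seen with length. Of the regions of 2 to 5 kb, 5 to 10 kb, 10 to 20 kb and 20 kb or more, 3.94%, 7.55%, 15.1% and 36.1% were called lower, and their median log2 fold changes were -0.36, -0.35, -0.34 and -0.36. The median standard error was 0.25 over all regions and 0.15 in regions of 20 kb or more. Broad regions are often found over genes of high activity, such as those of cell identity. The 995 promoter regions of 20 kb or more were called in 40.3% and had a median of -0.36, and the 4337 promoter regions of 2 to 5 kb were called in 4.45% and had a median of -0.35.

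Regions under 2 kb were an exception in size. The 187 of them had a median log2 fold change of -1.09, and of -0.74 after scaling, and 34 (18.2%) were called lower. Relative to the median of all regions their median differed by -0.97 between Old and Young (pooled SD 0.10, exact permutation p = 0.333, the smallest possible). Each held a median of 5.25 reads per library, the median standard error was 0.67, and the class carried 0.238% of the difference in share. Of these short regions, 103 were coded Y alone, 57 AC+Y, 17 AC+O+Y and 10 O+Y, and 113 (60.4%) abutted another region of the table, against 1.06% of all regions. The code and the short length were made from these same libraries, and their part in the difference was not tested.

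The change also differed by code over regions of all lengths, the short ones included. The 19702 regions coded AC+O+Y had a median of -0.33 and carried 87.9% of the difference in share. Regions coded AC+Y (n = 2964) and Y (n = 1139) had medians of -0.52 and -0.58, and those coded O+Y (n = 618) had a median of -0.26. These medians are descriptions, since the codes depend on the same reads. In the AC+O+Y regions, which were detected in all 3 groups, Old still held 78.8% of the Young level.

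Base composition and chromosome made little difference. Over 5 equal groups by CpG density, whose medians ran from 6.69 to 32 CpG per kb, the share called lower lay between 6.85% and 12.01% and the median log2 fold change between -0.36 and -0.33. Over 5 equal groups by repeat content, with medians from 10.5% to 30.4% of bases, the share called was 8.13% to 10.6% and the median -0.37 to -0.35. Across the 20 chromosomes the medians lay between -0.37 and -0.33. The X chromosome (408 regions) had 5.64% of its regions called lower, the lowest share, and a median of -0.37.

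**Figure D3:**
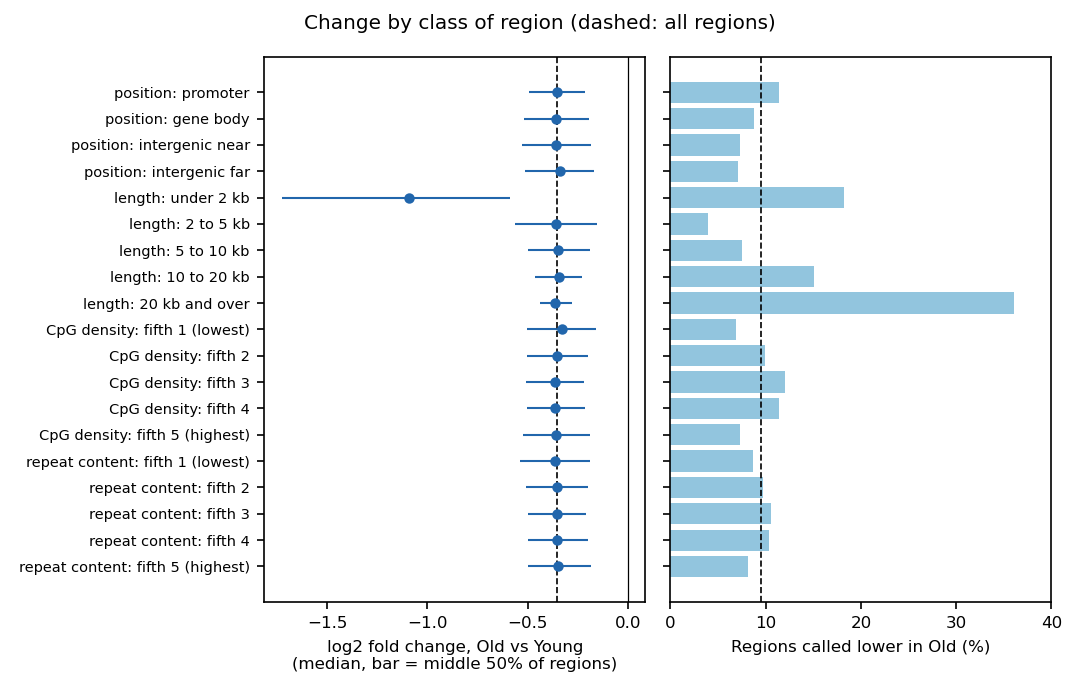
Median log2 fold change of Old vs Young with the middle 50% of regions as bars (left) and percent of regions called lower in Old (right), by class of position, length, CpG density and repeat content, with dashed lines at the values of all regions. The medians lie close to -0.35 in all classes but the regions under 2 kb (-1.09), and the share called rises with length to 36.1%.

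The difference was spread over many regions. The mean RPM was lower in Old in 22490 regions and higher in 1941, and the losses summed to 136715 RPM against gains of 2643 RPM. The 5 regions of greatest loss made up 0.398% of the net loss, the top 100 made up 4.22% and the top 1000 made up 21.4%. It took 4139 regions to reach 50% of it. Those regions covered 39.9% of the length of all regions and held 42.0% of the Young reads. The regions called lower carried 29.4% of the net loss and 20.4% of the Young reads.

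The 5 regions of greatest loss were broad domains of 89000 to 162500 bp that each span a promoter. The region over Fndc3b (chromosome 3, 27551001 to 27713500), a membrane protein with fibronectin type III domains, held 514.9 and 475.5 RPM in Young and 358.7 and 371.1 RPM in Old. Its log2 fold change was -0.44 (SE 0.09, limma adjusted p = 0.00427). The region at Nfix (chromosome 8, 84697001 to 84800000), which encodes a nuclear factor I transcription factor, also has starts of Lyl1 and G430095P16Rik within 1 kb. Its values were 361.9 and 341.9 RPM in Young and 231.1 and 247.8 RPM in Old, a log2 fold change of -0.55 (SE 0.10, limma adjusted p = 0.000858). The groups were clearly apart at the Fndc3b and Nfix regions. At Ski, a repressor of TGF-β signalling, Young held 420.8 and 386.8 RPM and Old 283.4 and 299.9 RPM. At Egfr, the receptor for epidermal growth factor, Young held 373.1 and 375.8 RPM and Old 297.7 and 270.4 RPM. At Iqsec1, an exchange factor for Arf GTPases, Young held 321.8 and 294.1 RPM and Old 226.0 and 212.8 RPM. All 5 fell in Old and remained called without Young replicate 1, which 9 regions in all did, while Egfr lost its call without Old replicate 2 (limma adjusted p = 0.122). Relative to all regions, their scaled log2 fold changes were small, from -0.20 to -0.05, and none passed the threshold.

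The largest changes among well covered promoters were found at shorter regions. Taking called promoter regions with separate groups and at least the median level, the 12 most negative log2 fold changes ran from -1.17 to -0.91, in regions of 3500 to 9500 bp. Their standard errors were 0.21 to 0.25, against 0.09 to 0.10 in the 5 regions of greatest loss. Cyb561a3, a cytochrome b561 family protein that reduces iron, led with a region on chromosome 19 (10575501 to 10579500) that also spans the start of Tmem138. It held 22.4 and 22.9 RPM in Young and 9.24 and 10.3 RPM in Old, so that Old lay at 43.3% of Young (log2 fold change -1.17, SE 0.25, limma adjusted p = 0.00656). The replicates of each group were close together there. Garnl3, a protein with a Rap GTPase-activating domain, followed on chromosome 2 (33129001 to 33132500). It held 29.9 and 17.2 RPM in Young and 9.24 and 11.5 RPM in Old (log2 fold change -1.10, SE 0.24, limma adjusted p = 0.00745), with a wide gap between the Young replicates, and its log2 fold change was -0.71 without Young replicate 1 (limma adjusted p = 0.273).

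The other 10 regions differed in the roles of their genes. The region of Tiam1, an activator of the GTPase Rac, held 25.0 and 18.0 RPM in Young and 12.9 and 7.56 RPM in Old (log2 fold change -1.06). That of Triobp, which bundles actin, held 36.8 and 29.8 RPM in Young and 16.6 and 18.3 RPM in Old (-0.91). Cdc25b, a phosphatase that activates cyclin-dependent kinases, shares its region with Spef1 and had 28.0 and 20.0 RPM in Young and 10.2 and 12.3 RPM in Old (-1.05). Nek3, a NIMA-related kinase, had 23.4 and 20.0 RPM in Young and 13.4 and 7.56 RPM in Old (-1.06). In each of these regions every Old value lay below every Young value, as the naming rule required. Without Old replicate 2 the values were -0.69 for Tiam1 and -0.67 for Nek3 (limma adjusted p = 0.126 and 0.142).

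Hhat attaches palmitate to Hedgehog ligands, and its region held 23.4 and 28.2 RPM in Young and 12.5 and 13.9 RPM in Old (-0.94). Kdelr3, a receptor that returns proteins to the endoplasmic reticulum, had 33.6 and 24.9 RPM in Young and 15.3 and 14.7 RPM in Old (-0.93). The region of P2rx3, an ATP-gated ion channel, also covers the start of Ssrp1, a subunit of the histone chaperone FACT, and held 21.1 and 24.5 RPM in Young and 12.9 and 10.7 RPM in Old (-0.92). Which of these genes the signal belongs to cannot be told apart, as at 1753 promoter regions with start sites of 2 or more genes. The remaining 3 regions, at Ubac2, Arl14epl and Zfp266, had log2 fold changes of -1.03, -1.02 and -0.9999. None of the 12 was called without Young replicate 1, where their lowest limma adjusted p was 0.129, and 10, 12 and 7 were called without Young replicate 2, Old replicate 1 and Old replicate 2. Their log2 fold changes stayed between -1.49 and -0.67 in these fits. After scaling they lay between -0.82 and -0.56 and none was called.

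Outside promoters, the 6 most negative regions by the same rule had log2 fold changes from -1.13 to -1.03. The first lay within Kalrn, a guanine nucleotide exchange factor, on chromosome 16 (33999001 to 34005500), and held 25.0 and 24.5 RPM in Young and 13.9 and 8.75 RPM in Old. Others lay within Elf1, an ETS transcription factor (24.0 and 20.8 RPM in Young, 12.9 and 7.95 RPM in Old), within Tnfaip8 (23.4 and 20.8 RPM in Young, 10.6 and 9.54 RPM in Old) and within Rin2, a Rab5 exchange factor (33.9 and 26.1 RPM in Young, 15.3 and 13.5 RPM in Old). The last 2 lay far from any protein-coding start site, 177019 bp from that of Klf6 and 204102 bp from that of Tbc1d1. They had log2 fold changes of -1.03 each. The Klf6 region held 25.7 and 24.5 RPM in Young and 18.0 and 7.95 RPM in Old, and that of Tbc1d1 20.1 and 24.1 RPM in Young and 13.9 and 7.95 RPM in Old. Both rested on the low second Old library, and without it their log2 fold changes were -0.47 and -0.65. The same fit gave -0.81 within Kalrn, -0.77 within Elf1, -1.02 within Tnfaip8 and -0.94 within Rin2. None of the 6 was called without Young replicate 1 or after scaling.

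The 7 regions that were higher in Old were repeat-rich. Soft-masked repeats made up 25.1% to 59.4% of their bases against a median of 18.9% over all regions. Their Young levels ran from 2.15 to 15.8 RPM per kb, and only those near Sfi1, Ly6c2 and Chl1 lay above 3 RPM per kb. The largest, 21500 bp on chromosome 11 (3183501 to 3205000), spans the starts of Sfi1, a centrosomal protein, and Eif4enif1, which binds the translation factor eIF4E. It held 233.6 and 329.2 RPM in Young and 387.4 and 385.8 RPM in Old (log2 fold change 0.48, SE 0.10, limma adjusted p = 0.00432), or 13.1 RPM per kb in Young. The higher Young value lay closer to the Old values than to the other Young value. The 3500 bp region near Ly6c2, a surface antigen of the Ly6 family, on chromosome 15 (75084501 to 75088000) held 42.4 and 58.8 RPM in Young and 68.9 and 73.2 RPM in Old (0.50, SE 0.16, limma adjusted p = 0.0319), or 14.5 RPM per kb in Young. A region of 1500 bp within Chl1, a neural adhesion molecule, held 16.5 and 31.0 RPM in Young and 37.0 and 31.8 RPM in Old (0.59, SE 0.20, limma adjusted p = 0.0473), or 15.8 RPM per kb in Young. There the second Young and the second Old library were nearly equal.

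The region near Gvin1, a large interferon-inducible GTPase, on chromosome 7 (106235001 to 106245500) held 23.0 and 30.2 RPM in Young and 44.4 and 35.0 RPM in Old (0.57, SE 0.19, limma adjusted p = 0.0390). The Ly6c2 and Gvin1 regions were also the 2 called after scaling. The other 3 were regions of 2000 bp with few reads. The region on chromosome 3 nearest to Gm8797 held 3.29 and 6.94 RPM in Young and 12.02 and 12.7 RPM in Old, that nearest to Neto1 2.30 and 8.99 RPM in Young and 12.02 and 9.54 RPM in Old, and that nearest to Samd9l 3.29 and 5.31 RPM in Young and 17.1 and 5.97 RPM in Old. None of the 7 was called without Young replicate 1, and 7, 3 and 3 were called without Young replicate 2, Old replicate 1 and Old replicate 2, although each log2 fold change stayed above 0. Their sizes depended on single libraries. Without Young replicate 1 the log2 fold change was 0.14 at Chl1, 0.24 at Neto1, 0.23 at Sfi1, 0.27 at Ly6c2, 0.38 at Gvin1 and 0.79 at Gm8797, and without Old replicate 1 it was 0.46 at Samd9l. How reads that match several repeats were placed is not given in the sources used here, and the part of repeat content in these changes was not tested.

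**Figure D4:**
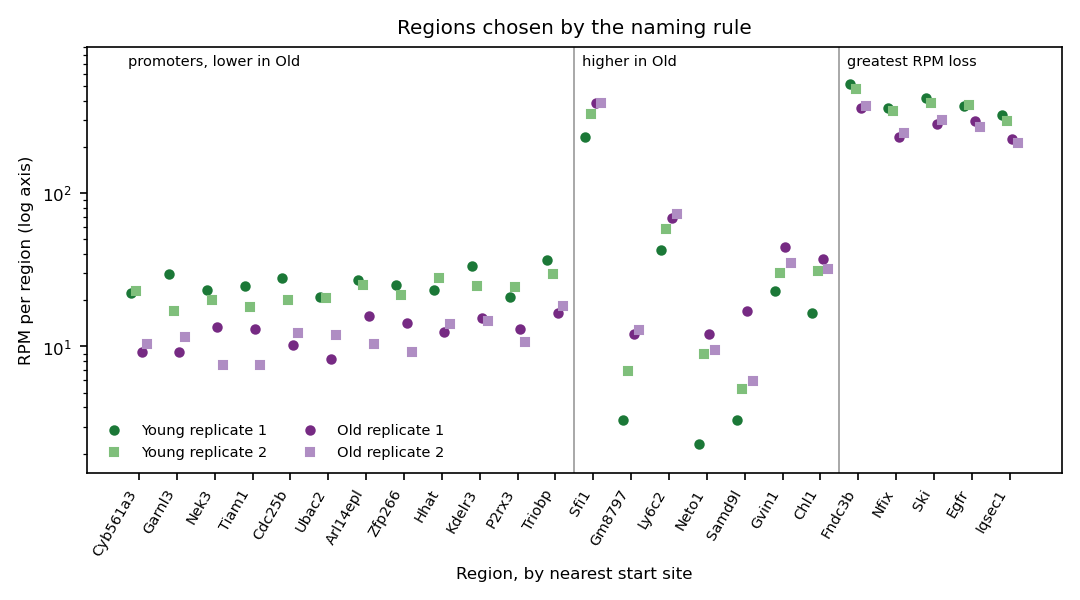
RPM per region on a log axis in each of the 4 libraries, for the 12 promoters with the most negative changes, the 7 regions higher in Old and the 5 regions of greatest RPM loss, named by the nearest start site. The groups do not overlap in any of the regions shown. The naming rule required this of the 12 promoters, and the others were chosen by their calls or their loss. Over all regions, 60.2% had both Old libraries below both Young libraries and 1.29% had both above. The Young replicates lie far apart in several of the 7 higher regions.

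Genes were then followed in 19 lists of lineage, pathway and marker genes. Of 365 genes, 308 had a region within 1 kb of a start site, and these 315 regions had a median log2 fold change of -0.37 against -0.35 over all regions. Lower calls numbered 60 (19.05%, against 9.5% over all regions and 11.4% over all promoter regions) and higher calls 0. The list regions were also longer and deeper, with a median of 9500 bp and 69.2 reads against 5500 bp and 39.8 reads over all regions, and the part of this in the share was not tested. After scaling the median was -0.02 and 0 regions were called. Of the 60, none was still called without Young replicate 1, 41 without Young replicate 2, 35 without Old replicate 1 and 6 without Old replicate 2. In 9 of the 60 the log2 fold change came closer to 0 by more than 1.5 times when a library was left out. Without Young replicate 1 it was -0.27 at Rps15, -0.26 at Col1a1, -0.25 at Cebpb, -0.27 at Srebf1, -0.32 at Fos and -0.27 at Lmnb1. Without Old replicate 2 it was -0.36 at Thy1, -0.32 at Alcam and -0.28 at Ccl2. Over the whole table, 1540 of 12399 genes with a promoter region had one that was called lower. Of the 315 list regions, 95.2% had a log2 fold change below 0, including most of those not called. In the lists below, lower means called lower, to be read beside the 11.4% over all promoter regions. Values below 0 made up 93.9% of all promoter regions. Of promoter regions of 2 to 5, 5 to 10, 10 to 20 and at least 20 kb, 4.45%, 8.43%, 17.3% and 40.3% were called lower. Median lengths were 21500 bp for the patterning list, 18000 bp for matrix, 17000 bp for AP-1 and 14250 bp for glycolysis. They were 12500 bp for MSC markers and 5500 bp for histone acetyltransferases, against 5500 bp over all promoter regions. The part of length in the share of each list was not tested.

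**Figure D5:**
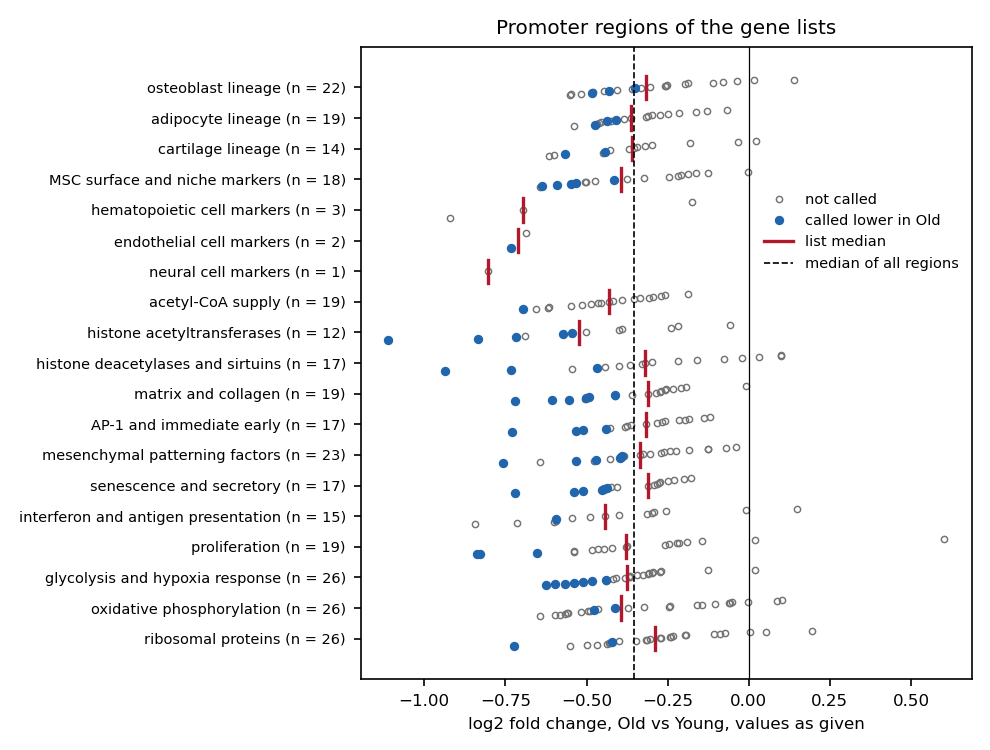
Log2 fold change of Old vs Young (values as given) at the promoter regions of the 19 gene lists, with 1 point per region, filled where called lower, a red bar at each list median and a dashed line at the median of all regions. Nearly all points lie below 0, and the open point at 0.60 is Ccnb2.

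The osteoblast list had a median of -0.32, with 90.9% of values below 0. Of its 22 regions, 3 were called lower in Old (13.6%, against 11.4% of all promoter regions). They belonged to Sp7, the transcription factor that commits cells to bone, in a region that also spans the start of Aaas (-0.48), Col1a1, the main bone collagen (-0.43), and Sparc, a matrix protein (-0.35, limma adjusted p = 0.0428). The region over Col1a1 (chromosome 11, 94925501 to 94959000) held 94.8 and 74.3 RPM in Young and 65.2 and 59.3 RPM in Old. Runx2, the master regulator of the lineage, has 2 regions, one with 48.4 and 43.7 RPM in Young and 31.9 and 35.4 RPM in Old (-0.45, limma adjusted p = 0.0688), the other with 25.7 and 24.9 RPM in Young and 26.3 and 23.1 RPM in Old (-0.04). The first separated the groups without passing the threshold, and in the second they overlapped.

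In the adipocyte list 100% of values were below 0 (median -0.36) and 3 of 19 regions were called lower (15.8%). These were Cebpb (-0.47), Srebf1 (-0.44) and Cebpa (-0.41), which encode transcription factors of fat cell formation and lipid synthesis. The Cebpb region held 93.1 and 68.2 RPM in Young and 53.2 and 61.6 RPM in Old. Pparg, the central regulator of fat cells, held 24.0 and 19.2 RPM in Young and 24.5 and 17.1 RPM in Old, so that its groups overlapped. In the cartilage list 92.9% of values were below 0 (median -0.36) and 2 of 14 regions were called lower (14.3%). These were the collagen gene Col11a1 (-0.57) and the parathyroid hormone receptor Pth1r (-0.44). Sox9, which starts the cartilage programme, held 40.8 and 42.5 RPM in Young and 29.6 and 37.4 RPM in Old (-0.32, limma adjusted p = 0.195).

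Of the 18 MSC marker regions 5 were called lower (27.8%, against 11.4% of all promoter regions). The median was -0.39 and 100% of values were below 0. Pdgfra, the receptor whose promoter is printed above, had a region on chromosome 5 (75142501 to 75166500) with 84.6 and 71.5 RPM in Young and 56.9 and 46.5 RPM in Old (-0.59, SE 0.15, limma adjusted p = 0.0132). Cd9, a tetraspanin of the cell surface, held 181.3 and 164.2 RPM in Young and 122.0 and 116.5 RPM in Old (-0.53). Alcam (-0.64), Thy1 (-0.55) and Cd44 (-0.41), all adhesion or surface proteins, were the other 3. Pdgfrb (137.5 and 114.0 RPM in Young, 107.7 and 103.4 RPM in Old) and Prrx1 (177.0 and 161.8 RPM in Young, 133.6 and 136.8 RPM in Old) did not pass the threshold. The summed level of the 18 regions was 1236 and 1098 RPM in Young and 943.9 and 852.7 RPM in Old. Over the 3 hematopoietic regions it was 65.8 and 58.4 RPM in Young and 48.1 and 43.0 RPM in Old, over the 2 endothelial regions 38.8 and 38.4 RPM in Young and 24.5 and 21.9 RPM in Old, and over the neural region 9.21 and 15.1 RPM in Young and 6.01 and 7.16 RPM in Old. The median log2 fold changes of the hematopoietic, endothelial and neural lists were -0.69, -0.71 and -0.80. They held a median of 42.5, 40 and 24 reads per library, against 95 in the MSC list. After scaling these medians were -0.34, -0.36 and -0.45, against -0.04 in the MSC list. Of these 6 regions of other cell types, Esam passed the threshold (-0.73, limma adjusted p = 0.0420).

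The patterning factors that give mesenchyme its position had 6 of 23 regions called lower (26.1%, median -0.34). Among them were Hand2 (-0.76), Snai1 (-0.53), Prrx2 (-0.47), Osr1 (-0.40) and Tbx15 (-0.39). At Hand2 the values were 32.6 and 33.1 RPM in Young and 18.95 and 19.5 RPM in Old, with both pairs of replicates close together. Foxc1 held 86.2 and 82.1 RPM in Young and 84.1 and 79.5 RPM in Old (-0.04), so its groups overlapped.

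Of 12 regions of histone acetyltransferases, which write the mark, 5 were called lower (41.7%, against 11.4% of all promoter regions). The median log2 fold change was -0.52, which became -0.17 after scaling. The list's median level relative to all regions of the same library did not go the same way, with an Old minus Young difference of 0.06 on the log2 scale (pooled SD 0.18, exact permutation p = 1). The called regions belonged to Kat5 (-1.11), Kat2a (-0.84), Kat6a (-0.72), Kat6b (-0.57) and Ncoa3 (-0.55). The short region over Kat5, the catalytic subunit of the NuA4 complex, held 10.2 and 10.2 RPM in Young and 4.16 and 4.77 RPM in Old (SE 0.34, limma adjusted p = 0.0301). That over Kat6a held 37.2 and 36.8 RPM in Young and 23.1 and 21.5 RPM in Old (SE 0.19, limma adjusted p = 0.0172). Ep300, which encodes the broadly acting acetyltransferase p300, held 18.4 and 16.3 RPM in Young and 16.2 and 17.1 RPM in Old (-0.06), and its relative Crebbp 25.3 and 22.5 RPM in Young and 22.2 and 18.3 RPM in Old (-0.24), neither past the threshold.

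Of 17 regions of deacetylases and sirtuins 3 were called lower (17.6%). The median was -0.32 (0.03 after scaling), with 82.4% of values below 0 against 92.1% over all regions. The region over the start of Sirt1, an NAD-dependent deacetylase, on chromosome 10 (63337001 to 63340500) held 18.8 and 15.1 RPM in Young and 9.71 and 7.56 RPM in Old (-0.94, SE 0.27, limma adjusted p = 0.0251). A further region at another Sirt1 start held 18.4 and 18.0 RPM in Young and 20.8 and 18.3 RPM in Old (0.10). Sirt3, its mitochondrial relative (-0.73), and Hdac7 (-0.47) were the other 2. Of 19 regions for acetyl-CoA supply, 100% had a value below 0, against 93.9% of all promoter regions. Both Old libraries lay below both Young libraries in 89.5% of the 19, against 65.7% of all promoter regions. Only 1 of the 19 was called lower (5.26%, against 11.4% of all promoter regions), that of the mitochondrial pyruvate carrier Mpc1. It held 21.7 and 24.5 RPM in Young and 13.4 and 14.7 RPM in Old (-0.70, limma adjusted p = 0.0409). The list median was -0.43, and -0.08 after scaling. Acly, which splits citrate to acetyl-CoA, held 29.9 and 22.9 RPM in Young and 16.6 and 17.1 RPM in Old (-0.62, limma adjusted p = 0.0554), and Acss2, which makes acetyl-CoA from acetate, 22.0 and 24.5 RPM in Young and 21.7 and 19.1 RPM in Old (-0.19).

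Among metabolic lists, glycolysis and the response to low oxygen had 7 of 26 regions called lower (26.9%, median -0.37). These were Gpi1 (-0.63), Egln1 (-0.60), Eno1 (-0.57), Vegfa (-0.54), Ldha (-0.51), Hif1a (-0.48) and Slc2a1 (-0.44). The region over Slc2a1, the main glucose transporter, held 127.7 and 107.8 RPM in Young and 86.4 and 86.3 RPM in Old. That over Hif1a, the oxygen-regulated transcription factor, held 74.4 and 80.1 RPM in Young and 61.5 and 49.3 RPM in Old. Oxidative phosphorylation had 2 of 26 regions called lower (7.69%, against 11.4% of all promoter regions, median -0.39). Among them was Atp5c1, a subunit of the ATP synthase, with 68.1 and 63.3 RPM in Young and 43.5 and 50.9 RPM in Old (-0.48). Ribosomal protein genes had 2 of 26 called lower (7.69%, median -0.29), Rps15 (-0.72) and the broad region at Rps14 (-0.42). The Rps15 region held 26.6 and 13.9 RPM in Young and 9.71 and 13.5 RPM in Old, so that the second Young and second Old libraries were nearly equal.

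Of the 19 matrix regions 6 were called lower (31.6%, median -0.31). The region shared by the starts of Col4a1 and Col4a2, which encode basement membrane collagen and face away from each other, held 32.9 and 32.7 RPM in Young and 20.8 and 18.7 RPM in Old (-0.72). Fn1, encoding fibronectin, held 54.3 and 45.7 RPM in Young and 33.7 and 31.4 RPM in Old (-0.61). Col12a1 (-0.55), Bgn (-0.50), Col6a2 (-0.49) and Col5a1 (-0.41) were the others, while Col3a1 held 41.1 and 46.2 RPM in Young and 37.0 and 37.0 RPM in Old (-0.23, limma adjusted p = 0.316). Of 17 AP-1 and immediate early regions 4 were called lower (23.5%, median -0.32), Ier2 (-0.73), Fos (-0.53), Fosl2 (-0.51) and Junb (-0.44). The broad region at Fos held 156.9 and 117.2 RPM in Young and 98.9 and 88.7 RPM in Old.

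Senescence and secretory genes had 6 of 17 regions called lower (35.3%, against 11.4% of all promoter regions, median -0.31). Among them were Trp53 (-0.72), the region shared by the chemokines Ccl2 and Ccl7 (-0.51), Hmga2 (-0.45), the region shared by the cell cycle inhibitors Cdkn2a and Cdkn2b (-0.45) and Lmnb1 (-0.44). The Cdkn2a and Cdkn2b region (chromosome 4, 89286001 to 89312500) held 96.4 and 87.4 RPM in Young and 68.9 and 65.6 RPM in Old, and a further Cdkn2a region held 24.3 and 27.0 RPM in Young and 22.7 and 21.9 RPM in Old (-0.20). Cdkn1a held 25.3 and 21.6 RPM in Young and 16.6 and 22.3 RPM in Old, and its groups overlapped. No region of the list was higher in Old.

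Proliferation genes had 3 of 19 regions called lower (15.8%, median -0.38), the mitotic kinases Plk1 (-0.84) and Aurkb (-0.65) and the mitotic cyclin Ccnb1 (-0.83). The Plk1 region held 32.6 and 24.5 RPM in Young and 15.3 and 15.9 RPM in Old. Interferon and antigen presentation genes had 1 of 15 regions called lower (6.67%, against 11.4% of all promoter regions), and the list median was -0.44. The called region lies at Isg15, a ubiquitin-like protein (31.9 and 33.9 RPM in Young, 22.7 and 20.7 RPM in Old, -0.59). It also has starts of Agrn and AW011738 within 1 kb.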

How the data were processed

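H3ac CUT&RUN was measured in 6 libraries, of which 4 (Young and Old, 2 each) were compared. The deposited table holds RPM, which the authors computed per region and library. The table is named as RPKM, but all values were whole multiples of the RPM of 1 read (tolerance 0.01) whatever the region length, so whole reads and library totals were recovered from them. The submitters' processing notes name mm10, Bowtie2 and Picard, and further parameters and any use of the yeast DNA added when the reaction was stopped are not given in the sources used here.

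Regions were annotated with GENCODE M21 protein-coding start sites (GRCm38, distance limits of 1 and 50 kb). The test of single regions was that of limma 3.58.1, run under R 4.3.3 (eBayes with trend and robust, 6 libraries, group means) on log2(RPM + 0.5), as given and after median-of-ratios scaling. Fold changes are on this scale and understate changes of low regions. edgeR 4.0.16 on recovered reads was an alternative. The script was tested on simulated data. Promoter sequences came from RefSeq. Figures were drawn with matplotlib 3.10.9.

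Named regions were the 12 most negative promoters and 6 most negative other regions called with separate groups and at least the median level, all regions called higher, the 5 of greatest RPM loss, those called after scaling and the 2 lowest p in each list. Other list genes were named after their values were seen. A few regions and sequences that the rule takes are not reported here. The members and lists were chosen with earlier results of these data known. Alternatives concerned pseudocounts, filters, scaling, libraries, annotation limits and thresholds.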

Additional observations from a re-analysis of the deposited data

How the results depend on the processing

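With values as given, 2327 regions were called Old vs Young. The count was 649 with only the 4 Young and Old libraries, 19 with eBayes without trend and robust, 101 at a threshold of 0.01, and 644 and 724 without OldAcetate replicate 1 and 2, and the cause of these differences was not tested. Leaving out 1 compared library gave from 9 (without Young replicate 1, 3652 at an unadjusted p under 0.05) to 3252 called regions. After scaling, 2 were called. The count was 1 with only the 4 libraries, 0 with eBayes without trend and robust (1433 at an unadjusted p under 0.05), 1 and 1 without either OldAcetate library, 1 at a threshold of 0.01, 5 and 6 with edgeR and its RLE and TMM factors, and 5 with quantile normalization (3 higher and 2 lower), and it ranged from 0 to 9 when a compared library was left out. The 60 list regions called lower became 0 after scaling and from 0 to 60 when a library was left out. The Sparc region changed sign with scaling, to 4.4e-05 on the log2 scale (limma adjusted p = 0.999919). Pseudocounts of 0.1 and 1, removal of the lowest 25% of regions, edgeR without factors and autosomal regions only kept the count as given between 2194 and 2753. The libraries carry replicate numbers in the labels. Across regions, the difference of replicate 1 minus replicate 2 was nearly uncorrelated between Young and Old (r = 0.0093). This r cannot register a shift shared by all regions. The share of reads in regions was larger for replicate 1 than for replicate 2 throughout: Young 64.8% against 57.8%, Old 49.9% against 45.9%, OldAcetate 57.3% against 56.3%. Whether the replicate numbers mark a pairing or batch was not tested. With the replicate block limma called 3211 regions as given, 2 after scaling and 81 of the list regions. The differences in share stayed between -16.9 and -9.88 percentage points for all regions and between -8.71 and -5.52 for promoters when a library was left out. The median region held 31 to 56 reads per library, and of the middle of 5 equal groups by level 5.89% were called lower at a median change of -0.34. Whether the regions not called held too few reads or changed too little cannot be told from these values.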

Other observations

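Some regions lay against the common direction without passing the threshold, and they were chosen after their values were seen. The region over Ccnb2, a mitotic cyclin, on chromosome 9 (70420001 to 70423000) held 5.59 and 5.31 RPM in Young and 8.32 and 8.75 RPM in Old, a log2 fold change of 0.60 (SE 0.34, limma adjusted p = 0.194), beside -0.83 at Ccnb1. In Rpl8, a protein of the large ribosomal subunit, the values were 22.4 and 18.8 RPM in Young and 24.0 and 23.1 RPM in Old (0.20, limma adjusted p = 0.499). Dlx6, a homeobox factor of the skeleton, held 25.3 and 22.1 RPM in Young and 30.5 and 22.3 RPM in Old (0.14, limma adjusted p = 0.623). B2m, the light chain of MHC class I, held 15.8 and 13.9 RPM in Young and 21.3 and 12.7 RPM in Old (0.15, limma adjusted p = 0.664). Both Old values lay above both Young values at Ccnb2 and Rpl8, and the groups overlapped at Dlx6 and B2m.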
